A study of Mus musculus with 2 samples.

Results

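The miR-181 family of the mouse consists of 6 genes, Mir181a-1, Mir181b-1, Mir181a-2, Mir181b-2, Mir181c and Mir181d. They were taken by name from the 2202 miRNA genes counted in adrenal glands, and all 6 had reads in both libraries. The glands came from female B6CASTF1/J mice aged 25 days, a cross that gives each animal 1 chromosome set of the wild-derived CAST strain, and RNA below 30 nucleotides was sequenced. The labels give 1 group of 2 biological replicates, called library 2 and library 1 here. The 2 glands are numbered as separate animals but carry the same donor identifier, so whether they came from 1 animal or 2 is not settled. With 1 library for each, differences between animals cannot be told apart from differences of dissection, library preparation or sequencing.

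A miRNA gene encodes a hairpin, and either arm of the hairpin (5p or 3p) can be cut out as a mature miRNA. The mature strand pairs with messenger RNAs mainly through its seed, bases 2 to 8, and lowers their translation and stability. The miR-181 family is best known from lymphocytes, where miR-181a tunes T cell receptor signalling by repressing phosphatases, and in mice the Mir181a-1/Mir181b-1 locus is needed for natural killer T cell development. Members are also expressed in brain and blood vessels, and miR-181c has been found in heart mitochondria of the rat. The adrenal gland joins a steroid-making cortex to a medulla of chromaffin cells, and it is rich in vessels.

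The 6 genes form 3 pairs, each pair on 1 strand of 1 chromosome. In mm10 coordinates, Mir181a-1 (ENSMUSG00000065565.1) spans chr1:137966455-137966541 on the plus strand and Mir181b-1 (ENSMUSG00000065458.1) spans chr1:137966639-137966718, 97 bases further on. Both lie in an intron of the noncoding gene Gm4258 on their own strand. All of Mir181b-1 and the last 11 bases of Mir181a-1 also fall in an exon of A430106G13Rik, a lincRNA gene of that strand. Mir181a-2 (ENSMUSG00000065423.1) spans chr2:38852735-38852810 and Mir181b-2 (ENSMUSG00000065578.1) spans chr2:38853830-38853918, both on the plus strand and 1019 bases apart. They lie opposite an intron of Nr6a1, which encodes an orphan nuclear receptor known from germ cells, and GENCODE M21 has no gene over them on their own strand. Mir181b-2 is also opposite an exon of Gm44144, a locus whose transcript is annotated as yet to be tested. Mir181c (ENSMUSG00000065483.2) spans chr8:84178873-84178961 and Mir181d (ENSMUSG00000076338.1) spans chr8:84178716-84178787, both on the minus strand and 85 bases apart. Both lie in an intron of Nanos3, a gene of germ cell maintenance, on its own strand.

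The mature sequences show which members could be told apart by their reads, and all come from RefSeq on GRCm38.p6, where each of the 6 genes was matched. The 5p arms are given first, 5′ to 3′, with the seed in capitals.
miR-181a-5p, from Mir181a-1 and Mir181a-2: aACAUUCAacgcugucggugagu
miR-181b-5p, from Mir181b-1 and Mir181b-2: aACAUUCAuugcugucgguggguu
miR-181c-5p, from Mir181c: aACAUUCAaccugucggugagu
miR-181d-5p, from Mir181d: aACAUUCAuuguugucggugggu
All 6 genes shared the seed of the 5p arm, and no other gene among the 1738 mature entries of the table had it. miR-181a-5p and miR-181c-5p differed by 1 edit, the removal of a base. From base 1 on, miR-181d-5p differed from miR-181b-5p by C12U and was 1 base shorter. miR-181b-5p differed from miR-181a-5p by A9U, C10U and A21G and was 1 base longer.

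The 3p arms were different in each of the 6 genes, and their seeds split the family otherwise than the 5p seed did.
miR-181a-1-3p, from Mir181a-1: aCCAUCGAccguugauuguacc
miR-181c-3p, from Mir181c: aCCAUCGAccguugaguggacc
miR-181a-2-3p, from Mir181a-2: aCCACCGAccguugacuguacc
miR-181b-1-3p, from Mir181b-1: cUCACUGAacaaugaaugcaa
miR-181b-2-3p, from Mir181b-2: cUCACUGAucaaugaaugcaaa
miR-181d-3p, from Mir181d: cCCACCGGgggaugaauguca
The 3p seed was shared by Mir181a-1 with Mir181c and by Mir181b-1 with Mir181b-2, and it was found in no second gene for Mir181a-2 and Mir181d. Between miR-181a-1-3p and miR-181a-2-3p the differences were U5C and U16C, and between miR-181a-1-3p and miR-181c-3p they were U16G and U19G.

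The 4 hairpins that carry a duplicated 5p arm are printed to show how far the copies run together. Capitals mark the stretch around the 5p arm that is the same in both copies.
Mir181a-1 hairpin: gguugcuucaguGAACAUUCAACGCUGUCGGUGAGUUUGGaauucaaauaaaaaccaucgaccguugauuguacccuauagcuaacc
Mir181a-2 hairpin: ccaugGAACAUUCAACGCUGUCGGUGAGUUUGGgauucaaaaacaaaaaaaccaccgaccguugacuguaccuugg
Mir181b-1 hairpin: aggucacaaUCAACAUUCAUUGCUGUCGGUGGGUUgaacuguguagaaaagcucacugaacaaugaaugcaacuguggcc
Mir181b-2 hairpin: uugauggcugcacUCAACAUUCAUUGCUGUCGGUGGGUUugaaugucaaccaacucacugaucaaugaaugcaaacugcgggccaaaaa
Counted from the first base of the 5p arm, the 2 miR-181a copies were the same for 27 bases, 4 more than the mature miRNA, and first differed by A28G. The 2 miR-181b copies were the same for 24 bases, which is the length of the mature miRNA, and first differed by G25U. A read that starts at base 1 of the 5p arm and matches exactly could therefore be placed at a single hairpin of the table only from 28 bases on for miR-181a, and only from 25 bases on for miR-181b. miR-181c-5p was found in no other hairpin of the table from 11 bases on and miR-181d-5p from 12 bases on. Among the 3p arms, miR-181a-1-3p and miR-181c-3p ran together the longest and first differed by U16G.

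The depth was 11132685 reads in library 2 and 7938596 in library 1. Reads on the strand of a miRNA gene numbered 3912280 (35.1%) in library 2 and 2244073 (28.3%) in library 1. Reads that mapped to several places made up 27.5% of library 2 and 28.4% of library 1 and are in no gene count. How many of them were miR-181a-5p or miR-181b-5p was not measured. An exact read of either mature arm fits 2 hairpins. The counts of the 4 duplicated genes are therefore uncertain and can be too low by an unknown amount. The files do not split a gene's reads by arm. Levels are in CPM, for which each library was scaled to the same sum of reads on the strand of miRNA genes. A level is given as counted per gene, since a read covers an arm and not the gene's length. Intervals are 95% intervals of counting error only, since reads amplified by PCR carry no identifier of their molecule and are not independent.

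Together the 6 genes had 11158 reads in library 2 and 5356 in library 1. That was 0.285% of the miRNA reads in library 2 (Wilson interval 0.280 to 0.291%) and 0.239% in library 1 (0.232 to 0.245%), or 0.262 ± 0.0329% (SD, n = 2). Reads that mapped to several places are outside these shares. Of the 6 genes, 5 had at least 10 reads in each library, the minimum used here to call a gene detected, and Mir181b-1 did not. Among all 2202 genes, 337 were detected.

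Most of the reads came from the Nanos3 intron, whose 2 genes have mature arms of their own. Mir181d had 4760 reads (1217 CPM) in library 2 and 2158 reads (962 CPM) in library 1. Mir181c had 3997 reads (1022 CPM) in library 2 and 2200 reads (980 CPM) in library 1. Mir181d averaged 1089 ± 180 CPM and Mir181c 1001 ± 29.2 CPM (SD, n = 2), placing them 76th and 82nd of 2202 genes by mean level. Their order was not the same in the 2 libraries. Mir181c had 0.840 times the reads of Mir181d in library 2 (interval 0.805 to 0.876) and 1.02 times in library 1 (0.961 to 1.08). Their mean levels differed by less than the SD of Mir181d but by more than that of Mir181c.

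On chromosome 2, nearly all counted reads were those of Mir181b-2. It had 1823 reads (466 CPM) in library 2 and 807 reads (360 CPM) in library 1, with a mean of 413 ± 75.2 CPM (SD, n = 2), the 116th place. Mir181a-2, its neighbour on the same strand, had 21 reads (5.37 CPM, exact Poisson interval 3.32 to 8.21) in library 2 and 26 reads (11.6 CPM, 7.57 to 17.0) in library 1. Its mean was 8.48 ± 4.40 CPM (SD, n = 2), the 305th place. Mir181a-2 thus had 0.0115 times the reads of Mir181b-2 in library 2 and 0.0322 times in library 1.

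On chromosome 1 the order of the a and b genes was the opposite. Mir181a-1 had 533 reads (136 CPM) in library 2 and 160 reads (71.3 CPM) in library 1, with a mean of 104 ± 45.9 CPM (SD, n = 2), the 185th place. Mir181b-1, which starts 97 bases after it, had 24 reads (6.13 CPM, 3.93 to 9.13) in library 2 and 5 reads (2.23 CPM, 0.724 to 5.2) in library 1. Its mean was 4.18 ± 2.76 CPM (SD, n = 2), the 341st place. Mir181a-1 had 22.2 times the reads of Mir181b-1 in library 2 (interval 14.8 to 33.4) and 32.0 times in library 1 (13.1 to 77.9).

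**Figure D1:**
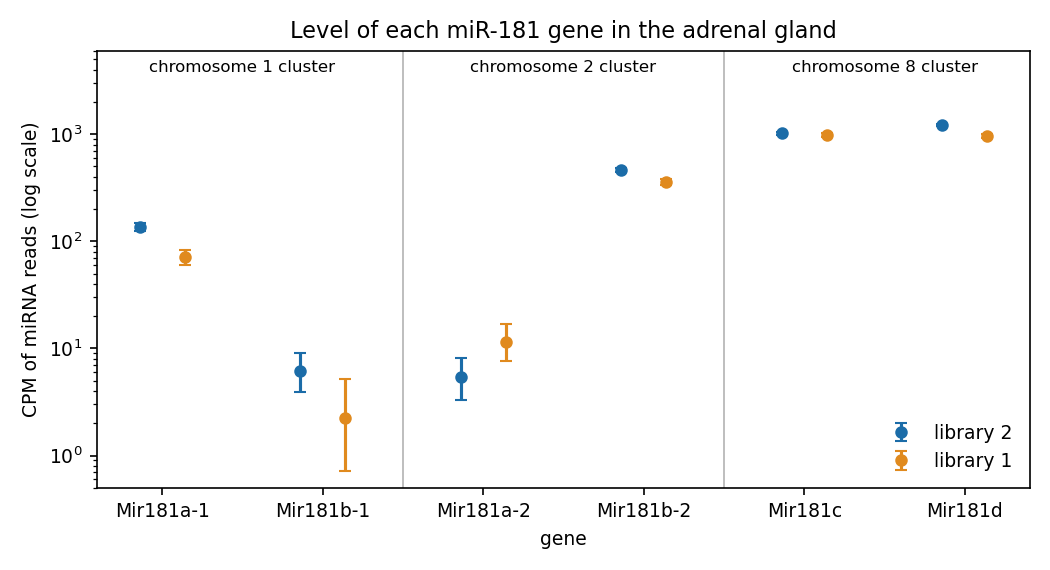
CPM of each miR-181 gene (log axis) in library 2 and library 1, by chromosome; bars are exact 95% Poisson intervals of counting error. Mir181c and Mir181d lie between 962 and 1217 CPM in both libraries, Mir181b-2 and Mir181a-1 lie below them, and Mir181a-2 and Mir181b-1 have 5 to 26 reads each.

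From high to low, the mean levels ran Mir181d, Mir181c, Mir181b-2, Mir181a-1, Mir181a-2 and Mir181b-1. Mir181d and Mir181c changed places between the libraries, and so did the last 2. In library 2 Mir181b-1 was just above Mir181a-2 with overlapping intervals, and in library 1 Mir181a-2 was above Mir181b-1. The steps from Mir181c to Mir181b-2, to Mir181a-1 and to Mir181a-2 had the same direction in both libraries, with no overlap of the 2 libraries' values between neighbours in that order.

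Set side by side as clusters, the chromosome 8 pair held 78.5% of the family's reads in library 2 (Wilson interval 77.7 to 79.2%) and 81.4% in library 1 (80.3 to 82.4%). The chromosome 2 pair held 16.5% in library 2 (15.8 to 17.2%) and 15.6% in library 1 (14.6 to 16.6%). The chromosome 1 pair held 4.99% in library 2 (4.60 to 5.41%) and 3.08% in library 1 (2.65 to 3.58%). Over both libraries the shares were 79.9 ± 2.04%, 16.0 ± 0.688% and 4.04 ± 1.35% (SD, n = 2). The order of the 3 clusters was the same in both libraries, and the gaps between them were larger than the SDs. Each gene of the chromosome 1 and 2 pairs has a duplicated 5p arm. Reads of that arm can be lost as mapped to several places, in both libraries alike. Agreement between the libraries therefore does not bear on that loss.

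**Figure D2:**
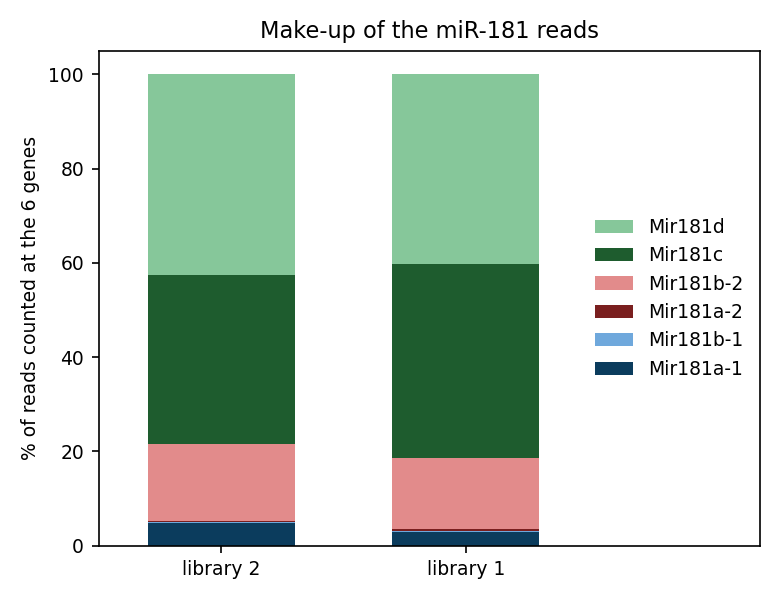
Reads counted at each gene as a percentage of the reads at all 6 miR-181 genes, for library 2 (left) and library 1 (right). The Mir181c and Mir181d segments fill 78.5% of the bar of library 2 and 81.4% of that of library 1, while Mir181b-1 and Mir181a-2 are barely visible.

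The same reads separate the genes by whether their mature sequence is duplicated. The 2 genes with unique mature arms are those of chromosome 8 and averaged 1045 CPM per gene over both libraries. The 4 genes with a duplicated 5p arm averaged 132 CPM per gene. The unique genes had 3.65 times the reads of the duplicated ones in library 2 (interval 3.49 to 3.82) and 4.37 times in library 1 (4.08 to 4.68). The division by sequence and the division by locus are the same here, since both unique genes share 1 cluster. A lower level of the 4 duplicated genes cannot be told apart from the loss of their reads as mapped to several places.

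The 2 genes that share a mature 5p sequence had unequal counts, and the higher gene lay on chromosome 2 for the b genes and on chromosome 1 for the a genes. These are counts of whole genes, without the arm or length of the reads, and do not show which copy gave rise to the shared 5p arm. Mir181b-2 on chromosome 2 had 76.0 times the reads of Mir181b-1 on chromosome 1 in library 2 (interval 50.8 to 114) and 161 times in library 1 (67.0 to 389). Mir181a-1 on chromosome 1 had 25.4 times the reads of Mir181a-2 on chromosome 2 in library 2 (16.4 to 39.3) and 6.15 times in library 1 (4.07 to 9.31). The gene with more counted reads was the same in both libraries in both pairs.

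Other pairs of genes with an identical mature arm were compared with these 2 pairs. The table of miRNA sequences held 1018 of the counted genes, of which 94 had an arm identical to that of another gene. These 94 genes took 1.24% of the miRNA reads in library 2 and 1.51% in library 1. Detected were 44 of the 94 (46.8%) and 260 of the other 924 (28.1%). Pairs were formed only from arms held by exactly 2 genes of that table, both of them counted, so the pairs are not all genes with a duplicated arm. The copy with the higher mean level was taken as the higher one, and some pairs share a gene. Of the pairs outside the family, 22 had a detected higher copy and at least 1 read at the other copy in each library. Their median ratio of the higher to the lower copy was 3.24 in library 2 and 4.03 in library 1, and their highest was 28.7 for Mir128-1 over Mir128-2 in library 2 and 77.0 for Mir26a-2 over Mir26a-1 in library 1, a pair whose ratio was 3.08 in library 2. None of the 22 exceeded the ratio of the miR-181b pair in either library, while 2 exceeded that of the miR-181a pair in library 2 and 7 in library 1. This ranking leaves out counting error. In library 1 the miR-181b ratio rests on 5 reads at Mir181b-1, and its interval (67.0 to 389) includes 77.0. Mir128-2 had 3 reads in library 2. In 1 further pair, Mir199a-2 and Mir199a-1, the lower copy had 1 read in library 2 and none in library 1.

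Among the pairs so formed, those with the most reads are given here. Mirlet7f-2, a let-7 gene on the X chromosome, had 4060 CPM in library 2 and 6056 CPM in library 1, against 175 and 279 CPM at its copy Mirlet7f-1. Mir16-1 had 2686 CPM in library 2 and 1118 CPM in library 1, against 454 and 245 CPM at Mir16-2. Mirlet7c-2 shares its 5p arm with Mirlet7c-1, over which its ratio was 1.97 in library 2 and 2.97 in library 1. It shares its 3p arm with Mirlet7a-1, over which the ratio was 2.84 and 2.69 in those libraries. Mir92-1 had 27.6 times the level of Mir92-2 in library 2 and 27.99 times in library 1. Mir30c-2 had 1.26 times the level of Mir30c-1 in library 2 and 1.35 times in library 1.

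**Figure D3:**
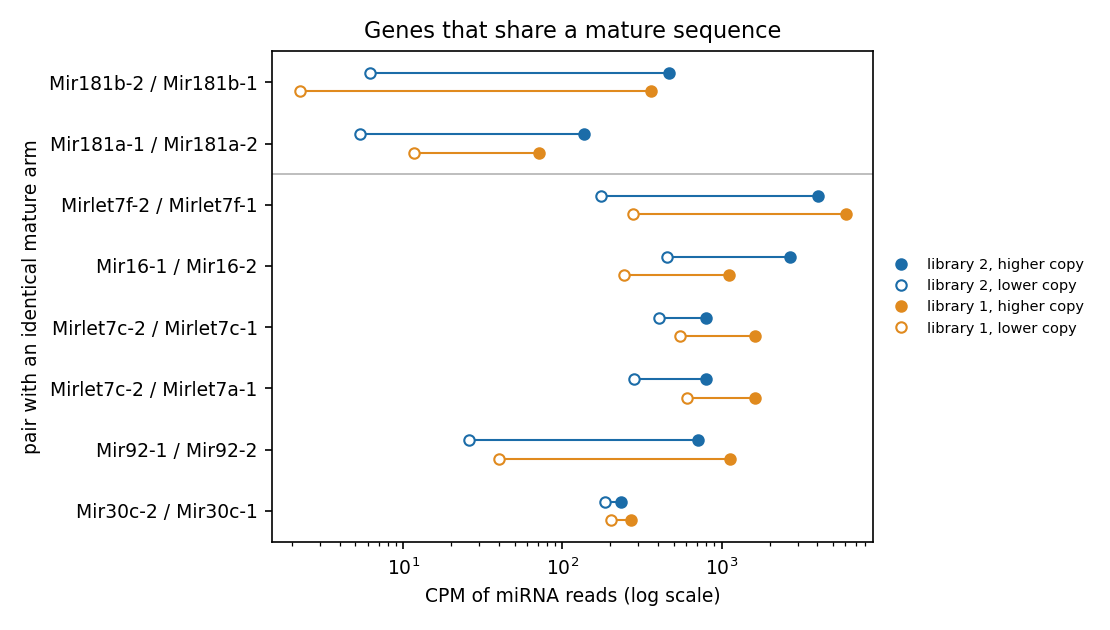
CPM (log axis) of the 2 genes of each pair with an identical mature arm, library 2 above library 1 within a pair; filled points are the copy with the higher mean and open points the other copy. The miR-181b pair spans 6.13 to 466 CPM in library 2 and 2.23 to 360 CPM in library 1, wider than the 6 pairs below the line, whereas the Mir30c pair nearly coincides.

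The difference between the libraries was small for the abundant members and larger for the others. For every gene whose 2 counts added up to 10 or more, a two-sided exact binomial test was run given that sum, with edgeR's TMM scaling and Benjamini-Hochberg adjustment over all 411 genes tested. This compares 2 libraries beyond counting error, not conditions. Log2 ratios are library 2 over library 1. At an adjusted p of 0.05, 5 of the 6 members were higher in library 2 and 1 in library 1, where 29.4% and 29% of all tested genes were so called. With a fold of 1.5 required as well, 2 members were called higher in library 2 and 1 in library 1, beside a background of 15.1% and 16.3% of the tested genes.

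The 2 genes of chromosome 1 rose together in library 2. Mir181a-1 was 2.02-fold higher there (log2 ratio 1.02, interval 0.76 to 1.27, edgeR-scaled exact binomial test, adjusted p = 5.98e-16). Mir181b-1, with 24 and 5 reads, was 2.71-fold higher (log2 ratio 1.44, interval 0.11 to 2.77, adjusted p = 0.0377 in the exact binomial test). Mir181a-2, with 21 and 26 reads, went the other way, at 2.02-fold higher in library 1 (log2 ratio -1.02, interval -1.84 to -0.20, adjusted p = 0.0284 in the exact binomial test). Its sign and that of Mir181a-1 differ. Their shared 5p arm gives no reason to expect the same sign, since exact reads of it fit both genes and are counted at neither. The calls of Mir181b-1 and Mir181a-2 rest on few reads, and each was lost under 1 or more alternatives.

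The other 3 members passed the adjusted p but not the fold. Mir181b-2 had a log2 ratio of 0.46 (interval 0.34 to 0.58), Mir181d of 0.43 (0.35 to 0.50) and Mir181c of 0.15 (0.07 to 0.22). These sizes were ordinary for the gland. The median absolute log2 ratio of all tested genes was 0.50, and 54.5%, 56.7% and 83.7% of the genes differed by more than Mir181b-2, Mir181d and Mir181c. For Mir181a-1, 19.5% differed by more. The median log2 ratio was 0.44 over the 6 members and -0.07 over all genes tested. Over the 337 detected genes, edgeR estimated a biological coefficient of variation of 0.382. Despite its name, this value measures the spread between the libraries beyond counting error, whatever its source.

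**Figure D4:**
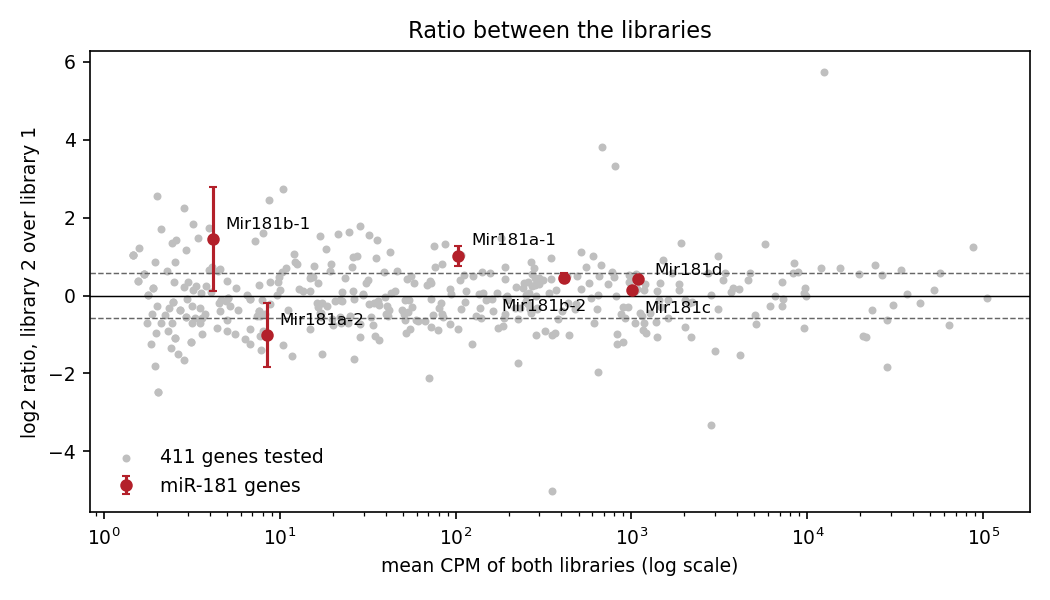
Log2 ratio of library 2 over library 1 against the mean CPM (log axis) for the 411 genes tested (grey) and the 6 miR-181 genes (red, with 95% intervals of counting error); dashed lines mark 1.5-fold. Mir181b-2, Mir181c and Mir181d lie within the dashed lines, Mir181a-1 and Mir181b-1 above them and Mir181a-2 below.

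Ratios between members of 1 library do not depend on the scaling, and 8 such ratios were compared between the libraries by Fisher's exact test, which was added after their values were seen. Mir181c over Mir181d differed (0.840 in library 2 and 1.02 in library 1, adjusted p = 1.45e-06), and so did Mir181a-1 over Mir181a-2 (25.4 and 6.15, adjusted p = 2.14e-05). Mir181a-2 over Mir181b-2 was 0.0115 in library 2 and 0.0322 in library 1 (adjusted p = 0.00104, Fisher's exact test). The chromosome 2 pair over the chromosome 1 pair was 3.31 in library 2 and 5.05 in library 1 (adjusted p = 3.17e-05, Fisher's exact test). Unique over duplicated genes differed as well (3.65 and 4.37, adjusted p = 3.45e-05), and the chromosome 8 pair over the chromosome 2 pair was near the threshold (4.75 and 5.23, adjusted p = 0.0451). Mir181a-1 over Mir181b-1 did not pass (22.2 and 32.0, adjusted p = 0.652), nor did Mir181b-2 over Mir181b-1 (76.0 and 161, adjusted p = 0.177), both with wide intervals. These tests measure counting error only.

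Other miRNA genes within 50 kb were present at the chromosome 8 pair alone. There the Mir23a, Mir27a and Mir24-2 genes, which form a cluster on the plus strand known from vessels and blood cells, start 29556 bases from Mir181c, which is on the minus strand. Mir23a had 30742 CPM in library 2 and 22530 CPM in library 1, far above either miR-181 gene. Mir27a had 922 CPM in library 2 and 1328 CPM in library 1, in the range of Mir181c and Mir181d. Mir24-2, whose mature arm is duplicated at Mir24-1, had 146 CPM in library 2 and 230 CPM in library 1. The log2 ratios were 0.53 for Mir23a, -0.44 for Mir27a and -0.57 for Mir24-2, so the plus-strand genes did not share 1 direction. Gm25110 and Mir3074-2 had no read on their own strand in either library, which allows up to 3 reads in each. This bound covers counted reads only. Mir3074-2 shares a mature arm with Mir3074-1, and reads of it can be lost as mapped to several places.

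Since miR-181 is best known from lymphocytes, miRNAs of lymphocytes and other leukocytes were set beside it, without those of red blood cells. Of 6 such genes, all detected, 1 was called higher in library 2 and 2 in library 1 at 1.5-fold. Of all tested genes, 15.1% and 16.3% were so called. The median log2 ratio of the 6 was -0.47. Their summed level was 2655 CPM in library 2 and 3644 CPM in library 1, while that of the miR-181 family was 2852 and 2387 CPM. Most of the leukocyte sum came from Mir146, with 1044 CPM in library 2 and 1518 CPM in library 1, and Mir342, with 699 and 1038 CPM. Neither of them was called at 1.5-fold. Mir142, found in all leukocytes, was 1.80-fold higher in library 2, with 337 CPM against 199 CPM in library 1. Mir150 of mature lymphocytes was 1.89-fold higher in library 1, with 215 CPM in library 2 and 433 CPM in library 1. Mir223 of neutrophils and monocytes was 4.34-fold higher in library 1, and Mir155, which activated lymphocytes induce, had a log2 ratio of 0.06 (interval -0.07 to 0.19).

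For the labelled tissue, a list of neuroendocrine miRNAs was read, and all 4 were detected. They summed to 43642 CPM in library 2 and 42476 CPM in library 1. The list was chosen with earlier results of these data known, so this detection does not test the tissue. The list held no marker of the cortex. Mir375 made up most of it and had a log2 ratio of 0.05. Mir137 (log2 ratio 1.00) and Mir7b (0.59) were called higher in library 2, Mir182 had a log2 ratio of 0.49, and the median of the 4 was 0.54. Markers of other tissues differed between the libraries too. The endothelial Mir126a had 121007 CPM in library 2 and 53763 CPM in library 1, a log2 ratio of 1.26. The red blood cell genes Mir451a and Mir144 summed to 25693 CPM in library 2 and 633 CPM in library 1, and the hepatocyte gene Mir122 had 491 CPM in library 2 and 5185 CPM in library 1. The 3 genes of smooth muscle and fibroblasts summed to 41791 CPM in library 2 and 28920 CPM in library 1, most of it Mir143. Of these, Mir143 was called higher in library 2 (log2 ratio 0.66) and Mir214 higher in library 1 (log2 ratio -0.71), while Mir145a had a log2 ratio of -0.02. Of 3 striated muscle genes, Mir1a-1 and Mir133a-1 had no read and Mir206 had 5 reads in library 2 and 9 in library 1. The part of these cells in the miR-181 ratios was not tested. In a whole gland, fewer cells of a type and less RNA per cell cannot be told apart.

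Genes nearest in level were sought for the top member of each cluster, by distance in the plane of log2 of CPM plus 1 over the 2 libraries. For Mir181a-1 they were Mir376b (distance 0.0567), Mir340 (0.414) and Mir1193 (0.419). Those nearest to Mir181b-2 were Mir467d (0.0786), Mir25 (0.304) and Mir369 (0.338). For Mir181d they were Mir532 (0.0993), Mir221 (0.142) and Mir1839 (0.179). With 2 libraries, this nearness says only that the levels were alike.

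No read was counted on the strand opposite to any of the 6 genes in either library, which allows up to 3 reads at each. The unstranded counts of the 6 genes were equal to the stranded ones.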

How the data were processed

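The authors deposited 1 table of raw read counts per miRNA gene for each library, with no normalization or pooling. Reads were mapped to mm10, per the labels, and counted with the GENCODE M21 annotation, per the text beside the tables. Aligner, counter and trimming: not given in the sources used here. Column 3, whose total over miRNA genes was the larger of the 2 stranded columns in both libraries, was taken as the strand of the gene, an inference from the values. Rows that name no gene (64.9% of the reads of library 2 and 71.7% of library 1) stayed out of library sizes and tests. All 2202 identifiers were found in GENCODE M21. Hybrid CAST reads can map less well to the mm10 sequence.

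Scaling used edgeR 4.0.16 under R 4.3.3, with DESeq2 1.42.0 as an alternative. Tests used scipy 1.17.1 under Python 3.11.15, tables pandas 2.3.3 with numpy 2.4.6, and plots matplotlib 3.10.9. With 1 group no quasi-likelihood test can be fitted. Genes with 10 or more reads summed therefore had an exact binomial test with TMM effective library sizes. The test was checked on simulated counts that varied by counting error only, so the check does not cover variation beyond it. For log2 ratios 0.5 read was added to each count. Sequences are from RefSeq (GRCm38.p6), whose table held the hairpins of 5 members. Searches for shared stretches covered the hairpins of that table on both strands. Named genes are the 6 members, genes within 50 kb, the 3 nearest in level to the top gene of each cluster, pairs with an identical arm and marker lists. The pair of largest ratio in each library was named after its values were seen. The members and lists were chosen with earlier results of these data known. Alternatives were DESeq2 size factors, library size alone, no filter, 100 or more reads summed, unstranded counts, 1 read added, all reads as the denominator and leaving out each library.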

Additional observations from a re-analysis of the deposited data

How the results depend on the processing

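The share of the family in the miRNA reads, 0.262%, was 0.0839% of all reads and 0.319% of the unstranded miRNA counts, whose total is smaller. The shares of the 3 clusters and of the duplicated genes were equal in the unstranded counts, and leaving out a library leaves the value of the other one. The 2 members called higher in library 2 became 1 with library size alone and 1 with 100 or more reads summed (Mir181a-1 in both), and 4 with no filter on low counts, where Mir181b-2 and Mir181d joined with log2 ratios of 0.63 and 0.59. The 1 member called higher in library 1, Mir181a-2, became 0 with no filter (log2 ratio -0.85) and 0 with 100 or more reads summed, where it and Mir181b-1 had too few reads to be tested. Mir181b-1 had a log2 ratio of 1.35 with library size alone. No member changed sign under the alternatives run. Leaving out the filter moved the log2 ratios of all genes by a median of 0.17. Among all genes, the share of calls that were higher in library 2 was 48.1%, against 38.5% with library size alone and 66.4% with no filter, where 43 genes in place of 67 were higher in library 1. No paired analysis was possible because the 2 libraries form 1 group. With 2 libraries, outliers could not be sought. Depth limits Mir181b-1 and Mir181a-2 most, at 5 to 26 reads per library.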
